A study of Mus musculus with 12 samples.

Results

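Selenoproteins are the proteins that carry selenocysteine, an amino acid with selenium in place of the sulphur of cysteine. The 10 genes described here encode selenoproteins that are neither glutathione peroxidases nor thioredoxin reductases. They are Sepp1, Sepw1, 2700094K13Rik, Selm, Sep15, Selk, Vimp, Selt, Sepn1 and Ept1, under the older symbols that the count table uses. They were chosen by name as the rows of the table with these symbols, 10 of 23478 genes, and all 10 had enough reads to be tested among the 15761 genes kept. RNA was measured in lungs of newborn C57/Bl6 mice after the lavage fluid had been taken out. The groups were aurothioglucose in hyperoxia (ATG hyperoxia), saline in hyperoxia, aurothioglucose in room air (ATG room air) and saline in room air, with 3 libraries each. Every pup was injected into the peritoneum on day 0, with 25 mg/kg aurothioglucose or with saline, and spent the following 72 h in hyperoxia (over 95% oxygen) or in room air. Aurothioglucose is a gold compound that inhibits thioredoxin reductases. The labels name no genotype other than the strain and give no sex. They do not say whether a library came from 1 pup or from several, so p-values measure the spread between these libraries.

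Selenocysteine is inserted at a UGA codon, which otherwise ends translation. A stem loop in the tail of the messenger RNA, called the SECIS element, recruits the machinery that reads UGA in this way. When selenium is scarce, cells keep up some selenoproteins at the expense of others, in part through the stability of the messenger RNA. Sepp1 encodes selenoprotein P, a secreted protein that carries selenium in the blood and is made mainly by the liver. The products of Sepw1, 2700094K13Rik (now Selenoh), Selm and Selt are small proteins with a thioredoxin-like fold. Sep15, Selk, Vimp (now Selenos) and Sepn1 encode proteins of the endoplasmic reticulum (ER), where Selm and Selt proteins also lie. Ept1 (now Selenoi) encodes an ethanolamine phosphotransferase, which makes phosphatidylethanolamine. RNA levels do not report how much selenium-containing protein was made.

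The sequence around the UGA codon sets these genes apart from each other, so it is shown for 8 of them on the coding strand, from GENCODE M21 transcripts of GRCm38. The selenocysteine codon is written TGA in capitals, with up to 18 bases on each side. In 4 genes, Sepw1, 2700094K13Rik, Selm and Selt, a cysteine codon (tgt) stood 3 codons before it, which is the spacing of the thioredoxin-like redox motif. In Sep15 a cysteine codon (tgc) stood 2 codons before it. In Selk and Vimp it lay at the end of the coding sequence, and in Sepp1 the first of 10 such codons is shown.
Sepw1: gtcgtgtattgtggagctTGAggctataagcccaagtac
2700094K13Rik: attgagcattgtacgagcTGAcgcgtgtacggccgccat
Selm: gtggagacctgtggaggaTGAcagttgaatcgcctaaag
Selt: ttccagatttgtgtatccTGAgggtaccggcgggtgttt
Sep15: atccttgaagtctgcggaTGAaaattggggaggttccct
Selk: cctccaatggctggtggaTGAggaagg
Vimp: ggcccatcatctggcggcTGAaac
Sepp1: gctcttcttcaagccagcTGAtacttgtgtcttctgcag

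These codons lay at chr7:15920464-15920466 (minus strand, exon 2 of 6) for Sepw1, chr2:84670381-84670383 (minus strand, exon 2 of 4) for 2700094K13Rik and chr11:3516273-3516275 (plus strand, exon 2 of 5) for Selm. For Selt the codon was at chr3:58585238-58585240 (plus strand, exon 2 of 6) and for Sep15 at chr3:144590645-144590647 (plus strand, exon 3 of 5). For Selk it was at chr14:29973440-29973442 (plus strand, exon 4 of 5) and for Vimp at chr7:66088844-66088846 (plus strand, exon 6 of 6). The Sepp1 codon shown was at chr15:3274848-3274850 (plus strand, exon 2 of 5), at codon 59 of 380, and the other 9 were all in exon 5. The Selk codon was number 92 of 94 and the Vimp codon number 189 of 190. In Ept1 it was codon 388 of 398, and in Sepn1 codon 428 of 557. Early and late codons both occurred among the genes, as the map of codons shows.

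**Figure D1:**
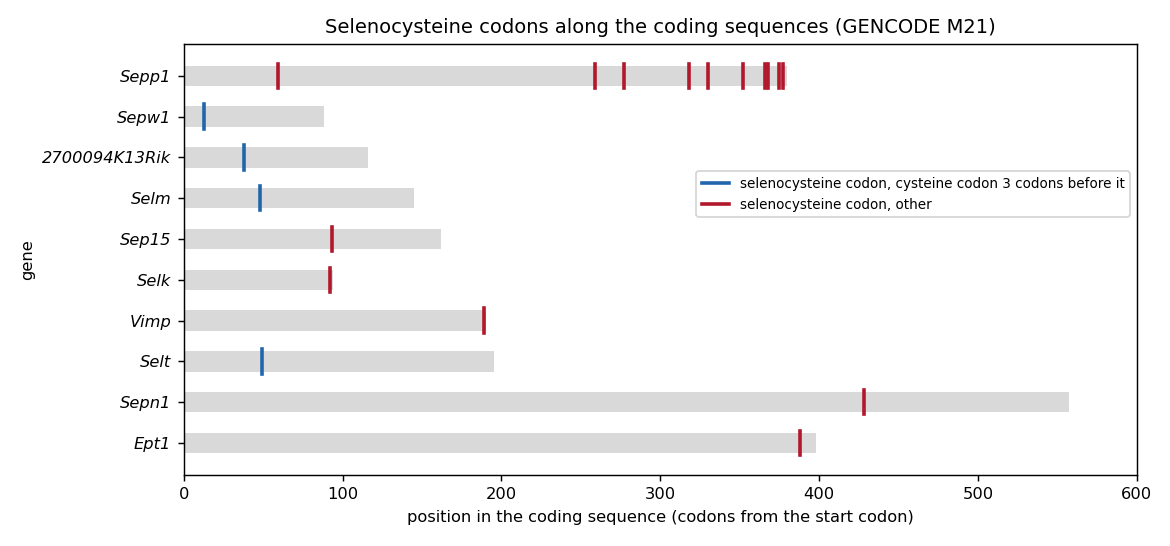
Each grey bar is the coding sequence of 1 gene, in codons from the start codon, and each tick is a selenocysteine codon. Blue ticks have a cysteine codon 3 codons before them, as in Sepw1, 2700094K13Rik, Selm and Selt; red ticks do not, and Sepp1 carries 10 of them.

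All 10 genes are annotated as protein-coding in RefSeq on GRCm38.p6, the assembly that mm10 names. Sepp1 spans chr15:3270767-3280510, Sepw1 chr7:15917208-15922371, 2700094K13Rik chr2:84669215-84670708, Selm chr11:3514684-3517351 and Sep15 chr3:144570427-144597677. Selk spans chr14:29968380-29975074, Vimp chr7:66079649-66089405, Selt chr3:58576636-58593544, Sepn1 chr4:134537892-134552166 and Ept1 chr5:30232581-30272430. Selk has 8 pseudogenes named after it and Selt has 1, none of them a row of the table, so reads of these genes may have been split or lost and their levels are uncertain. Sepp1 overlaps Ccdc152, which had at most 97 counts in a library, against 9664 or more for Sepp1.

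The genes differed in level by far more than they differed between conditions. Levels are given as CPM, the count as a share of its library after TMM scaling, and as CPM per kilobase (kb) of transcript where genes are compared. On that second scale Sepp1 was the highest, with 357 CPM per kb in ATG hyperoxia, 368 in saline hyperoxia, 318 in ATG room air and 321 in saline room air. Sep15 came next, with 154 CPM per kb in ATG hyperoxia, 146 in saline hyperoxia, 153 in ATG room air and 145 in saline room air. Vimp, Selt and Sepw1 lay between 38.9 and 58.1 CPM per kb in the group means. The group means of 2700094K13Rik lay between 27.4 and 32.9 CPM per kb, and those of Sepn1 between 28.2 and 29.7. Selm and Selk lay between 14.7 and 20.7 CPM per kb, and Ept1 was the lowest, between 7.74 and 8.75 CPM per kb. Within a gene, the highest of the 12 libraries was 1.25 times the lowest in Sep15 and 1.73 times in Selm, with the other genes between these. Selm was also the member with the fewest reads, 163 to 266 counts per library, where counting error alone is 6.13% to 7.83%.

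**Figure D2:**
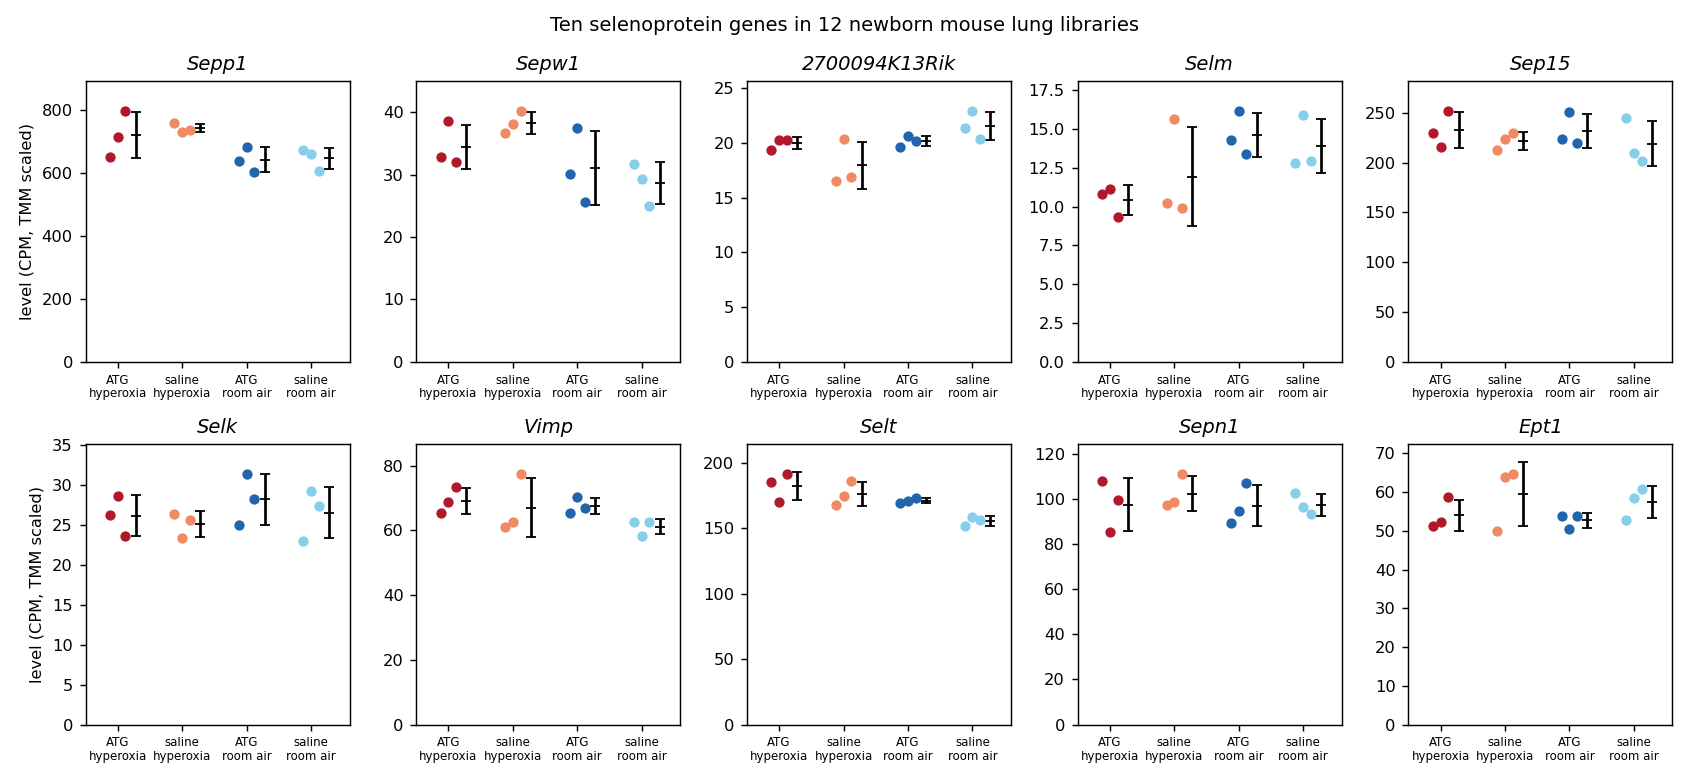
Each panel shows 1 gene, with the level in CPM (TMM scaled, axis from 0) in each of the 3 libraries of ATG hyperoxia, saline hyperoxia, ATG room air and saline room air, and the mean with its SD beside them. Sepp1 and Selt tend to stand higher and Selm lower in hyperoxia, Sepw1 stands higher in saline hyperoxia than in saline room air, and most other panels are close to level.

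Total counts per library were 18009965 to 20486735 in ATG hyperoxia, 16490223 to 19267023 in saline hyperoxia, 14589812 to 17368904 in ATG room air and 14331749 to 15916703 in saline room air. Libraries of hyperoxia tended to be deeper, with overlap. Markers of alveolar type 2 cells, the surfactant cells of lung, were abundant in every library, at summed levels of 14130 to 16440 CPM in ATG hyperoxia, 13810 to 15110 CPM in saline hyperoxia, 14460 to 16570 CPM in ATG room air and 12470 to 13270 CPM in saline room air. Heart muscle markers stood apart, at summed levels of 735.4 to 10640 CPM in ATG hyperoxia, 953.5 to 6277 CPM in saline hyperoxia, 917.9 to 1841 CPM in ATG room air and 1098 to 1579 CPM in saline room air. Replicate 2 of ATG hyperoxia and replicate 2 of saline hyperoxia held atrial Nppa at 1107.7 and 269.84 CPM, and skeletal muscle markers reached 378.1 CPM in saline hyperoxia, against at most 33.69 CPM in saline room air. Both are called Nppa-rich here. These 2 together with replicate 1 of saline hyperoxia, which held the 378.1 CPM, were set aside as the 3 libraries rich in heart or skeletal muscle transcripts (muscle-rich). Without the 3, saline hyperoxia has 1 library, whose spread is taken from the other groups. Calls are given without these libraries where they change. By Xist and Y-linked genes, ATG hyperoxia held 1 female and 2 male libraries, saline hyperoxia 2 and 1, ATG room air 2 and 1, and saline room air 0 and 3.

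Sepp1 was the one member of the 10 that passed the test for hyperoxia against room air, the comparison that asks what high oxygen does to these RNAs. It had 650, 713 and 795 CPM in ATG hyperoxia and 756, 731 and 737 CPM in saline hyperoxia. It had 638, 682 and 603 CPM in ATG room air and 672, 658 and 607 CPM in saline room air. In 5 of the 6 hyperoxia libraries Sepp1 was above every room air library, and replicate 1 of ATG hyperoxia lay among those of room air. Averaged over both injections Sepp1 rose by 0.18 on the log2 scale (SE 0.0594, 95% interval 0.05 to 0.32), a 1.14-fold change, with an adjusted p of 0.0385 over all genes tested by the quasi-likelihood test of edgeR (written edgeR QL). That is 1 of 10 members higher, where 11.0% of all genes tested were called higher and 11.3% lower in this comparison, so the share of members was near the background.

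Within each injection Sepp1 did not pass. In aurothioglucose it averaged 719 ± 72.8 CPM in hyperoxia and 641 ± 40.0 CPM in room air (SD, n = 3 each), a log2 difference of 0.17 with an edgeR QL adjusted p of 0.235. In saline it averaged 741 ± 13.5 CPM in hyperoxia and 646 ± 34.2 CPM in room air (SD, n = 3 each), a log2 difference of 0.20 with an edgeR QL adjusted p of 0.170. The saline groups did not overlap and the aurothioglucose groups did. The averaged call was kept under 9 of 20 alternative settings and lost under 11, with log2 changes of 0.15 to 0.23 and adjusted p of 0.0108 to 0.117. The call was lost with the sex read from the libraries as a covariate (adjusted p = 0.054), without the Nppa-rich libraries (0.0543), without the muscle-rich ones (0.117) and with the replicate number as a block (0.0593). It was also lost without ATG hyperoxia replicate 3 (adjusted p = 0.0791), saline hyperoxia replicates 1 (0.0643) or 3 (0.0579), ATG room air replicates 1 (0.0635) or 3 (0.0804), or saline room air replicates 2 (0.0559) or 3 (0.086).

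Sepp1 is expressed by hepatocytes and macrophages among other cells, so markers of both stand beside it. The summed level of 10 hepatocyte markers was 154.2 to 179.1 CPM in ATG hyperoxia, 138.9 to 193.3 CPM in saline hyperoxia, 228.3 to 261.7 CPM in ATG room air and 229.2 to 373.2 CPM in saline room air, lower in every hyperoxia library. Of these 10 markers, 7 were at 0 in at least 1 library, and only the other 3, Alb, Apob and Trf, were tested. The sum is not split by marker here, so it does not show which of these genes set it. In hyperoxia averaged over injections 2 of the 3 fell and 1 did not pass, where 11.3% of all genes tested fell. Alb stood at 73.2 CPM in replicate 2 of saline room air. The summed level of 9 tissue macrophage markers was 221.8 to 257.5 CPM in ATG hyperoxia, 235.2 to 289.6 CPM in saline hyperoxia, 242.1 to 277.4 CPM in ATG room air and 250.1 to 273.1 CPM in saline room air, with overlap between all groups. The tenth marker, Lyve1, which lymphatic endothelium also carries, rose by 1.36 on the log2 scale in hyperoxia averaged over injections (edgeR QL adjusted p = 8.05e-08). Of all 10 macrophage markers, 2 rose in that comparison, Lyve1 among them, 0 fell and 8 did not pass. Among all genes tested 11.0% rose. The part of these cells in the Sepp1 result was not tested, and in bulk tissue fewer cells of a type cannot be told from less RNA per cell. Over the 12 libraries the tested genes most like Sepp1 in log2 CPM were Lgmn, which encodes a lysosomal protease (Pearson's r 0.93), Etohi1 (r 0.90) and Bri3 (r 0.89), out of 11880 genes compared. These are descriptions, since all genes share the libraries and their groups.

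Sepw1, which encodes selenoprotein W, a small protein known for its abundance in muscle, was next. It had 32.8, 38.5 and 32.0 CPM in ATG hyperoxia and 36.7, 38.1 and 40.2 CPM in saline hyperoxia. It had 30.2, 37.4 and 25.6 CPM in ATG room air and 31.7, 29.3 and 25.0 CPM in saline room air. All saline hyperoxia libraries were above all those of saline room air, while the aurothioglucose groups overlapped, with replicate 2 of ATG room air high. The averaged log2 difference was 0.28 (SE 0.0986, 95% interval 0.06 to 0.51), with an edgeR QL adjusted p of 0.0519, just outside the threshold. Without replicate 2 of ATG room air the difference was 0.37 (adjusted p = 0.00901). Without replicate 1 of saline room air it was 0.33 (adjusted p = 0.0434). With all libraries, DESeq2 gave 0.29 (adjusted p = 0.0301), limma-voom 0.29 (0.0402), edgeR QL with RLE factors 0.29 (0.0482), with the replicate block 0.29 (0.0377) and with sex as a covariate 0.33 (0.0178). In saline alone the edgeR QL difference was 0.42 (SE 0.140, adjusted p = 0.0772), and in aurothioglucose 0.15 (SE 0.139, adjusted p = 0.559). The saline difference passed by DESeq2 (0.42, adjusted p = 0.0426), by edgeR QL with sex as a covariate (0.57, adjusted p = 0.0243) and by edgeR QL without replicate 2 of ATG room air (0.43, adjusted p = 0.0365). Without the 3 muscle-rich libraries the averaged difference was 0.29 (edgeR QL adjusted p = 0.146). The summed skeletal muscle markers of replicate 2 of ATG room air were 58.54 CPM, the highest of room air. Replicate 1 of saline hyperoxia had 378.1 CPM of these markers and, at 36.7 CPM, the lowest Sepw1 of its group. Replicate 2 of ATG hyperoxia had 69.86 CPM of them and the highest heart marker sum, 10640 CPM. At 38.5 CPM its Sepw1 was the highest of its group. Replicate 2 of saline hyperoxia, with a heart marker sum of 6277 CPM, had the middle Sepw1 of its group, 38.1 CPM. The part of muscle in the Sepw1 levels was not tested.

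Selm, whose product is an ER protein best known from brain, had the lowest log2 difference of the 10 in the average and in aurothioglucose, and it did not pass. In saline 2700094K13Rik was lower. Selm had 10.8, 11.2 and 9.31 CPM in ATG hyperoxia and 10.2, 15.6 and 9.92 CPM in saline hyperoxia. It had 14.3, 16.1 and 13.4 CPM in ATG room air and 12.8, 15.9 and 12.9 CPM in saline room air. Of the hyperoxia libraries, 5 were below every room air library, and replicate 2 of saline hyperoxia, a library rich in heart markers, was among the highest of all. The averaged log2 difference was −0.35 (SE 0.132, 95% interval −0.66 to −0.05, edgeR QL adjusted p = 0.0698). With all libraries and the replicate number as a block it was −0.36 (edgeR QL adjusted p = 0.0322). Without replicate 2 of saline hyperoxia it was −0.46 (adjusted p = 0.0124), without both Nppa-rich libraries −0.49 (adjusted p = 0.0134) and without the 3 muscle-rich ones, with 1 saline hyperoxia library left, −0.49 (adjusted p = 0.0389). In aurothioglucose, where the groups did not overlap, the edgeR QL difference was −0.49 (SE 0.187, adjusted p = 0.113), and in saline −0.22 (SE 0.186, adjusted p = 0.537). Markers of neurons, summed over 6 genes, were at 54.34 to 62.72 CPM in ATG hyperoxia and 50.71 to 64.92 CPM in saline hyperoxia, below the 71.18 to 86.74 CPM of ATG room air and the 78.24 to 84.59 CPM of saline room air. That sum was mostly Stmn2, which fell (−0.57, edgeR QL adjusted p = 3.08e-05). The other 5 genes had positive log2 differences that did not pass, and their sum, at 5.025 to 7.625 CPM in ATG hyperoxia, 2.618 to 13.57 CPM in saline hyperoxia, 2.086 to 8.878 CPM in ATG room air and 4.176 to 6.343 CPM in saline room air, overlapped between all groups. Their part in the Selm values was not tested.

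Selt, which encodes an ER membrane selenoprotein with the thioredoxin-like fold, had 185, 170 and 192 CPM in ATG hyperoxia and 168, 174 and 186 CPM in saline hyperoxia. It had 169, 171 and 173 CPM in ATG room air and 151, 159 and 156 CPM in saline room air. The saline room air libraries were the lowest 3 of the 12. The averaged log2 difference for hyperoxia was 0.14 (SE 0.0501, 95% interval 0.02 to 0.25; edgeR QL adjusted p = 0.0645). It was 0.18 without the Nppa-rich libraries (adjusted p = 0.0422) and 0.22 without the 3 muscle-rich ones, again with 1 saline hyperoxia library (adjusted p = 0.0327). It also passed without replicate 1 of saline hyperoxia (0.16, adjusted p = 0.0484) and without replicate 2 of ATG hyperoxia (0.17, adjusted p = 0.0302). With all libraries it passed by DESeq2 (0.14, adjusted p = 0.0433). Within saline the edgeR QL difference was 0.18 (SE 0.071, adjusted p = 0.137), with no overlap between the groups, and within aurothioglucose 0.09 (adjusted p = 0.456).

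The gene 2700094K13Rik encodes a nuclear DNA-binding selenoprotein. It averaged 20.0 ± 0.539 CPM in ATG hyperoxia, 17.9 ± 2.13 CPM in saline hyperoxia, 20.2 ± 0.497 CPM in ATG room air and 21.5 ± 1.28 CPM in saline room air (SD, n = 3 each). In saline the log2 difference of hyperoxia from room air was −0.26 (edgeR QL adjusted p = 0.206), and in aurothioglucose −0.01 (adjusted p = 0.961). Replicate 2 of saline hyperoxia, at 20.4 CPM, was within the range of room air, and the other 2 saline hyperoxia libraries, at 16.5 and 16.9 CPM, were the lowest of the 12.

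The ER members other than Selt and Selm showed smaller differences. Sep15, whose product binds the glycoprotein folding sensor UGGT, averaged 232 ± 18.0 CPM in ATG hyperoxia, 222 ± 8.59 CPM in saline hyperoxia, 232 ± 17.0 CPM in ATG room air and 219 ± 22.7 CPM in saline room air (SD, n = 3 each). Its averaged log2 difference for hyperoxia was 0.01, with a 95% interval of −0.14 to 0.16 (edgeR QL adjusted p = 0.925). With 3218 to 5108 counts per library it was among the better measured members, and its level overlapped in all 4 groups.

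Selk encodes an ER membrane protein that takes part in protein palmitoylation and calcium flux in immune cells. It ranged from 23.6 to 28.7 CPM in ATG hyperoxia, 23.3 to 26.3 CPM in saline hyperoxia, 25.1 to 31.4 CPM in ATG room air and 23.0 to 29.2 CPM in saline room air, and its averaged log2 difference was −0.09 (edgeR QL adjusted p = 0.506). Vimp encodes the ER membrane protein that binds the ATPase VCP in the removal of misfolded proteins. It ranged from 65.4 to 73.3 CPM in ATG hyperoxia, 61.0 to 77.5 CPM in saline hyperoxia, 65.5 to 70.2 CPM in ATG room air and 58.4 to 62.7 CPM in saline room air. The averaged difference of Vimp was 0.08 (edgeR QL adjusted p = 0.429).

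Sepn1 encodes an ER membrane protein of calcium handling, and its human gene is mutated in a congenital myopathy. It ranged from 85.2 to 108 CPM in ATG hyperoxia, 97.3 to 111 CPM in saline hyperoxia, 89.5 to 107 CPM in ATG room air and 93.1 to 102 CPM in saline room air, and its averaged difference was 0.04 (edgeR QL adjusted p = 0.737). Ept1 ranged from 51.1 to 58.6 CPM in ATG hyperoxia, 49.9 to 64.7 CPM in saline hyperoxia, 50.5 to 53.8 CPM in ATG room air and 52.9 to 60.9 CPM in saline room air. Its averaged difference was also 0.04 (edgeR QL adjusted p = 0.733). For both genes the libraries of hyperoxia and of room air overlapped.

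Counted together, 0 of 10 members passed in hyperoxia against room air within saline, where 9.19% of all genes tested were called in either direction, and 0 of 10 within aurothioglucose, where 11.7% were. At an unadjusted p under 0.05 the members numbered 4 in saline, where 22.7% of all genes tested stood at that level, and 1 in aurothioglucose, where 25.1% did. By DESeq2 1 member (Sepw1) passed in saline, against 12.3% of the 15736 genes given an adjusted p. In aurothioglucose 0 members passed by DESeq2, against 15.6% of 15125 genes. By limma-voom 0 passed in both, against 9.13% and 11.6% of all genes tested. In the average, DESeq2 called 3 members (24.9% of 15736 genes) and limma-voom 2 (22.3% of all genes tested). The median log2 difference of the 10 members was 0.04 in the average, beside −0.0028 over all genes tested. Groups did not overlap in saline for 3 members that were higher (Sepp1, Sepw1 and Selt), beside 14.6% of all genes tested, and in aurothioglucose for 1 that was lower (Selm), beside 13.9%.

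**Figure D3:**
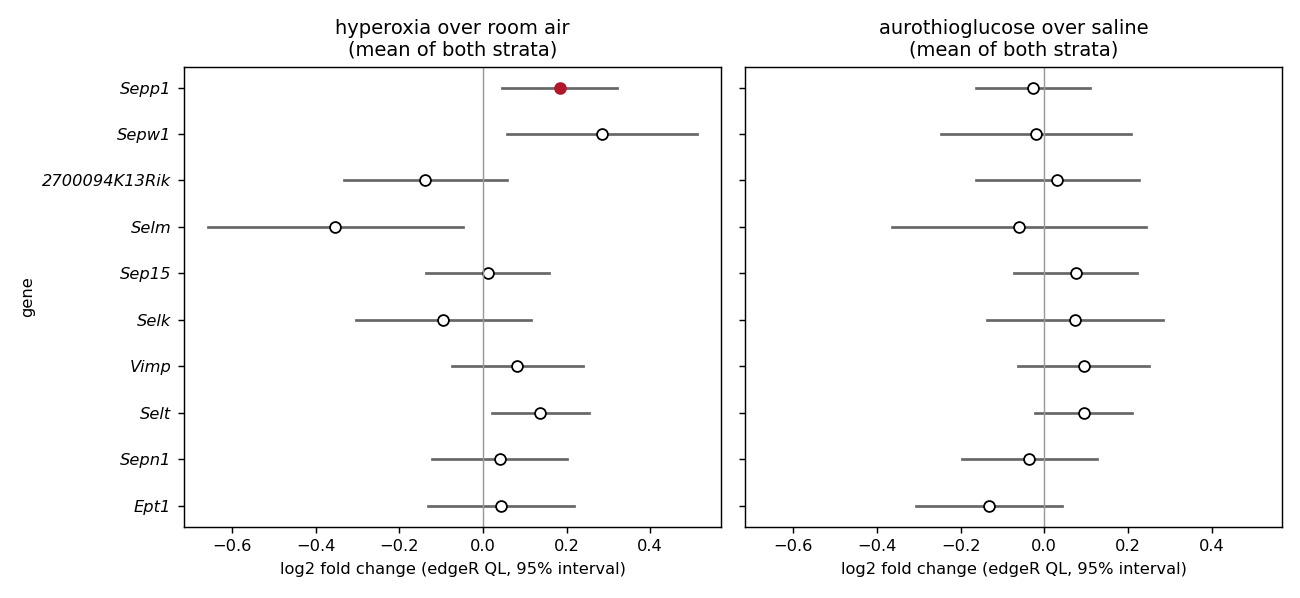
Points are log2 fold changes from edgeR QL, with 95% intervals (t quantile at 8 degrees of freedom) as lines. Hyperoxia over room air is on the left and aurothioglucose over saline on the right, each averaged over the other factor. Filled red marks an adjusted p under 0.05, reached by Sepp1 for hyperoxia at 0.18 and by no gene for aurothioglucose.

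Aurothioglucose against saline asks whether the drug changed the RNA of these selenoproteins. None of the 10 members passed by edgeR QL in room air, in hyperoxia or in the average, and at an unadjusted p under 0.05 the count was 0 in each. Of all genes tested, 6.02% had an unadjusted p under 0.05 in room air, 5.69% in hyperoxia and 8.47% in the average. DESeq2 and limma-voom also called 0 members in each. DESeq2 gave an adjusted p to 12080 genes in room air, 15736 in hyperoxia and 15430 in the average. Of these it called 0.132%, 0.0699% and 0.609%, in that order. Limma-voom called 0.00%, 0.0190% and 0.0571% of all genes tested. By edgeR QL calls were scarce among all genes tested, at 0.00% in room air, 0.00634% in hyperoxia and 0.0444% in the average, so a count of 0 is near the background. Averaged over oxygen, the members' log2 differences ran from −0.13 in Ept1 to 0.09 in Vimp. The 95% intervals of all 10 lay between −0.36, a 0.777-fold level, and 0.28, a 1.22-fold level.

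Selt and Vimp were the members whose room air groups did not overlap between injections, with aurothioglucose the higher. Of all genes tested, 6.26% had room air groups that did not overlap with aurothioglucose higher. Vimp averaged 67.6 ± 2.43 CPM in ATG room air and 61.2 ± 2.44 CPM in saline room air (SD, n = 3 each), a log2 difference of 0.14 (edgeR QL adjusted p = 0.894). Selt averaged 171 ± 1.86 CPM in ATG room air and 155 ± 3.67 CPM in saline room air (SD, n = 3 each), a difference of 0.14 (SE 0.071, edgeR QL adjusted p = 0.848). In hyperoxia both genes overlapped between injections. Selt averaged 182 ± 11.0 CPM in ATG hyperoxia and 176 ± 9.23 CPM in saline hyperoxia, and Vimp 69.2 ± 3.95 CPM in ATG hyperoxia and 67.0 ± 9.11 CPM in saline hyperoxia (SD, n = 3 each).

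Ordering the 4 groups for each member took 60 comparisons of pairs of groups, of which 1 passed. In that one, chosen after its values were seen, Selt was higher in ATG hyperoxia than in saline room air by 0.23 on the log2 scale (SE 0.0709, edgeR QL adjusted p = 0.0399), a pair that differs in both oxygen and injection and for which 8.02% of all genes tested were called higher. It was kept under 13 of 20 alternative settings and lost under 7, among them each of the 3 that leave out a saline room air library (adjusted p = 0.0724 to 0.104) and those without replicate 1 (0.0967) or 3 (0.117) of ATG hyperoxia. Sepp1 was ordered saline hyperoxia, ATG hyperoxia, saline room air and ATG room air from high to low, and no neighbours in that order passed.

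The interaction, which asks whether hyperoxia acted differently under aurothioglucose, was passed by 0 of 10 members and by 0.00% of all genes tested. At an unadjusted p under 0.05 stood 0 members and 2.95% of all genes tested, and DESeq2 and limma-voom each called 0 members and 0.00% of all genes. The interaction values ran from −0.27 in Sepw1 to 0.25 in 2700094K13Rik on the log2 scale. The differences between the injections described for Sepw1, Selm and 2700094K13Rik in hyperoxia were therefore not called as differences.

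Of 14 selenoprotein genes outside these 10, 12 were tested, and 5 rose, 0 fell and 7 did not pass in hyperoxia averaged over injections, with a median log2 difference of 0.44. Among all genes tested 11.0% rose and 11.3% fell in this comparison, which is the background for the counts of the lists that follow. The difference between these genes and the 10 was not tested. Txnrd1, the cytosolic thioredoxin reductase, averaged 109 ± 2.72 CPM in ATG hyperoxia, 87.9 ± 6.66 CPM in saline hyperoxia, 61.8 ± 6.46 CPM in ATG room air and 51.7 ± 2.40 CPM in saline room air (SD, n = 3 each). It rose by 0.79 in hyperoxia (edgeR QL adjusted p = 1.48e-06), and for aurothioglucose over saline its difference was 0.28 (adjusted p = 0.155). The glutathione peroxidases Gpx1 (0.58), Gpx2 (2.32) and Gpx3 (0.84) and the selenophosphate synthetase Sephs2 (0.45) also rose. Gpx2 is uncertain, since a near-identical copy could share its reads. The count was 5 up and 0 down with either the 2 Nppa-rich or the 3 muscle-rich libraries left out.

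Of 13 genes for the synthesis and insertion of selenocysteine, 3 rose (Sephs2 among them), 1 fell and 9 did not pass. Sars, the seryl-tRNA synthetase that also charges the selenocysteine tRNA, averaged 71.2 ± 7.70 CPM in ATG hyperoxia, 61.6 ± 4.27 CPM in saline hyperoxia, 36.4 ± 0.482 CPM in ATG room air and 37.9 ± 2.68 CPM in saline room air (SD, n = 3 each). It rose by 0.83 on the log2 scale (edgeR QL adjusted p = 2.18e-06). Secisbp2l, a paralogue of the SECIS-binding protein, rose by 0.29 (adjusted p = 0.00989). The synthetase homologue Sephs1, which does not carry selenocysteine, fell to 85.3 ± 9.94 CPM in ATG hyperoxia and 80.5 ± 4.65 CPM in saline hyperoxia, against 125 ± 15.7 CPM in ATG room air and 118 ± 5.02 CPM in saline room air (SD, n = 3 each). Its log2 change was −0.55 (edgeR QL adjusted p = 9.38e-05).

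Among 4 genes of selenium uptake, 1 rose and 1 fell, and 2 rose and 1 fell without the 3 muscle-rich libraries. Slc7a11, the cystine transporter that feeds selenium uptake, rose by 0.95 (edgeR QL adjusted p = 0.000449) and Lrp2, which takes up selenoprotein P in kidney, fell (log2 change −0.60, adjusted p = 0.00501). Lrp8, the selenoprotein P receptor of brain and testis, had −0.11 (adjusted p = 0.742). Slc7a11 was also the one gene of these lists that rose with aurothioglucose in the average (0.98, edgeR QL adjusted p = 0.0478). This call was kept under 5 of 20 alternative settings and lost under 15, with log2 changes of 0.87 to 1.09. With all libraries it was kept by DESeq2 (adjusted p = 4.07e-07), by limma-voom (0.0389) and by edgeR QL with no filter (0.00803). In edgeR QL, RLE factors (adjusted p = 0.0526), the replicate block (0.0877) and sex as a covariate (0.0634) lost the call. It was lost without the Nppa-rich libraries (adjusted p = 0.0904), without the muscle-rich ones (0.288), and without any 1 library (0.0734 to 0.203) other than replicate 1 of ATG room air or replicate 2 of ATG hyperoxia. It had 48.5, 42.1 and 58.5 CPM in ATG hyperoxia against 22.5, 20.4 and 21.9 CPM in saline hyperoxia.

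Of 19 genes of ER-associated degradation, where Vimp acts, 2 rose, 1 fell and 16 did not pass. Over all genes tested 11.0% were called higher and 11.3% lower. Herpud1, a scaffold of that pathway, averaged 81.3 ± 13.5 CPM in ATG hyperoxia, 76.9 ± 4.26 CPM in saline hyperoxia, 35.5 ± 5.02 CPM in ATG room air and 41.2 ± 2.52 CPM in saline room air (SD, n = 3 each), and rose by 1.05 (edgeR QL adjusted p = 2.71e-06). Ube2g2, a ubiquitin-conjugating enzyme, rose by 0.31 (adjusted p = 0.00756), and Vcp, the ATPase, had a log2 change of −0.27 (adjusted p = 0.00179). Without the 3 muscle-rich libraries 1 rose and 1 fell. Of 8 genes of the glycoprotein folding checkpoint, where Sep15 acts, 0 rose, and 1, the disulphide isomerase Pdia3, fell (−0.28, adjusted p = 0.00138). Without the 3 muscle-rich libraries that count was 0, and without the 2 Nppa-rich ones it was 2.

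Ept1 stands in ethanolamine and choline phospholipid synthesis, where 10 of 11 listed genes were tested and 6 rose, 1 fell and 3 did not pass, beside 11.0% higher and 11.3% lower over all genes tested. Etnk1, the ethanolamine kinase, averaged 176 ± 5.51 CPM in ATG hyperoxia, 199 ± 11.3 CPM in saline hyperoxia, 129 ± 11.6 CPM in ATG room air and 139 ± 2.09 CPM in saline room air (SD, n = 3 each), and rose by 0.48 (edgeR QL adjusted p = 2.76e-05). The choline kinase Chka rose by 0.37 (adjusted p = 0.000468) and Pcyt1a, an enzyme that activates phosphocholine, by 0.21 (adjusted p = 0.0103). Its brain-rich paralogue Pcyt1b was lower in hyperoxia (−0.90, adjusted p = 0.00383). Without the 3 muscle-rich libraries 3 rose and 1 fell. Of 13 genes of ER calcium stores, which Sepn1 and Selk bear on, 1 rose, 1 fell and 11 did not pass. The ER oxidase Ero1l rose by 0.24 (adjusted p = 0.0191), and its paralogue Ero1lb had −0.41 (adjusted p = 0.0355), which leaves the count at 0 lower without the Nppa-rich libraries.

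**Figure D4:**
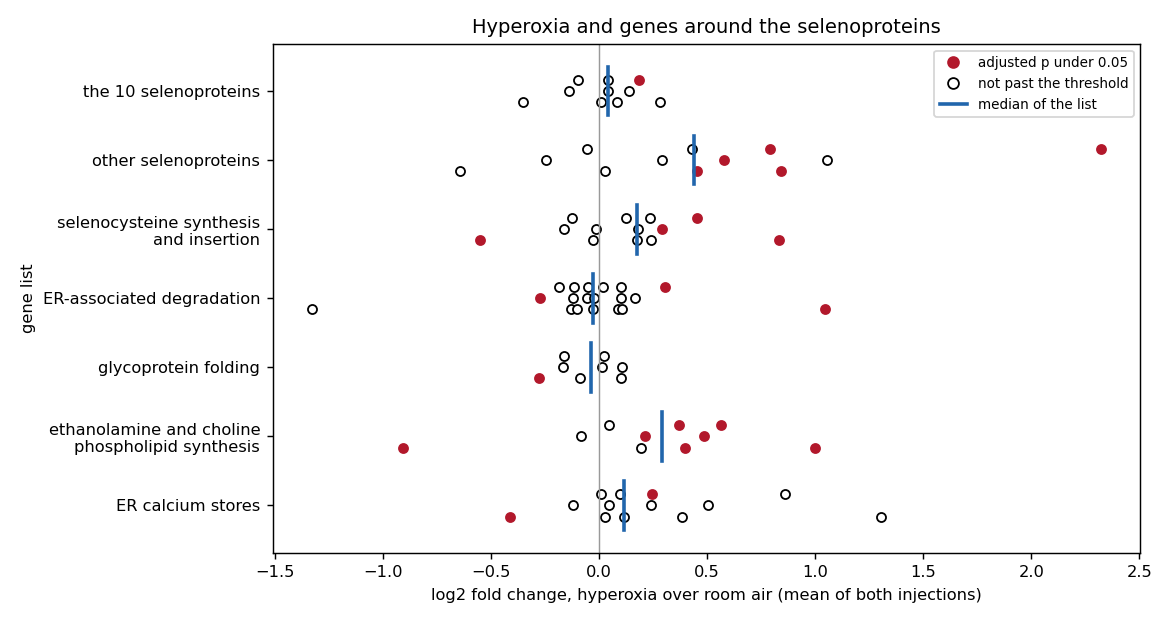
Each point is 1 gene, placed by its log2 fold change in hyperoxia over room air averaged over injections, in rows by gene list; filled red marks an edgeR QL adjusted p under 0.05 and the blue bar the list's median. The median of the 10 genes described here is 0.04 and that of the other selenoproteins 0.44, with single genes past the threshold on both sides in most of the other rows.

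Aurothioglucose against saline left these lists without a call in room air and in hyperoxia, and Slc7a11, a call lost under most settings, was the one in the average. The lists describe the surroundings of the 10 genes and were chosen with earlier results of these data known.

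The 4 members nearest the threshold for hyperoxia moved across it with the setting. Sepp1 was lost under 11 of 20 settings, as given above. Sepw1 passed under 7 settings, Selm under 4 and Selt under 5. The direction of each of the 4 was the same under all 20 settings.

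**Figure D5:**
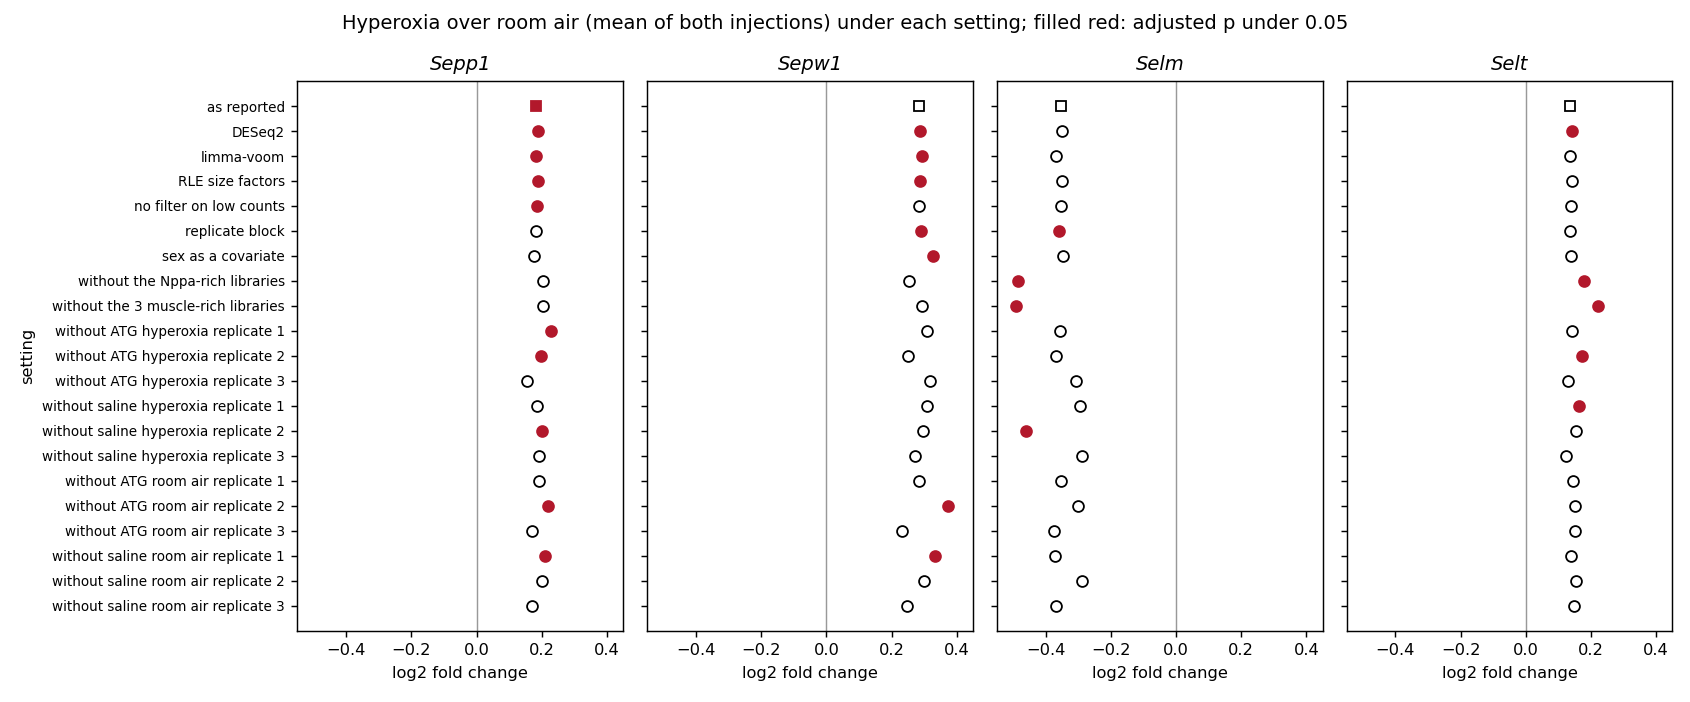
Each panel is 1 gene and each row 1 setting of the analysis; the x axis is the log2 fold change in hyperoxia over room air averaged over injections, with filled red for an adjusted p under 0.05 and squares for the values reported. Sepp1, Sepw1 and Selt stay above 0 and Selm below 0 in every row, while the fill changes from row to row.

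Promoters were searched for short motifs in RefSeq windows of GRCm38.p6 that run from 250 bases before to 50 bases after each start, 12 windows for the 10 members and 32851 in all, on both strands. The antioxidant response element, searched as TGACNNNGC, was in the window of 1 member, Selk (TGACTGGGC, 44 bases before the start), and in 12.39% of all windows. The ER stress response element, searched as CCAAT and CCACG with 9 free bases between them, was in 0 members and in 0.12% of all windows. The metal response element was searched in the forms TGCACNC, found in Selt and in 12.59% of all windows, and TGCGCNC, found in Ept1, Selm, Selt and Sepw1 and in 15.39%. The composite element of CCAAT-enhancer and ATF factors, TGATGNAA, was in 0 members and in 3.97% of all windows. The hypoxia response element core NACGTG was in 3 members (2700094K13Rik, Selm and Vimp) and in 19.59% of all windows. The GC box GGGCGG was in 6 members (2700094K13Rik, Ept1, Selk, Sep15, Sepn1 and Vimp) and in 35.66%. A match is a description of letters in a window and does not show a bound factor.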

How the data were processed

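Lung RNA was amplified with the Ovation RNA-Seq V2 system, made into Nextera XT libraries and sequenced as 75 bp pairs, as the labels state. The table the authors deposited holds raw counts by gene symbol for 12 libraries. The submitters' processing notes name Bowtie2, Cufflinks, DESeq and mm10. Which tool counted the reads, on which annotation and with what use of strand is not given in the sources used here.

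Counts were filtered with filterByExpr (minimum count 10, minimum total 15), which kept 99.96% of counts, scaled by TMM and fitted over all 12 libraries by edgeR QL leaving 8 residual degrees of freedom. The p-values of this fit, two-sided, were Benjamini-Hochberg adjusted over 15761 genes, with a threshold of 0.05, for 7 contrasts. The 95% intervals were made from the log2 difference and its SE with a t quantile at 8 degrees of freedom. They are not those of the edgeR QL test, and an interval can span 0 where the unadjusted p is under 0.05. Alternative fits were adjusted over the genes that each kept. Replicates differed beyond counting noise (chi-square per degree of freedom 6.27 to 37.2). The code was tested on simulated data. The fits ran in edgeR 4.0.16, with limma 3.58.1 and DESeq2 1.42.0 as alternatives, under R 4.3.3. Amplified reads are not independent molecules, so counting error is a lower limit.

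The members and lists were chosen with earlier results of these data known. All 10 members are named in each contrast, and of each list the genes past the threshold, up to 4 by adjusted p; Gpx3 was named after its value was seen, as were Lrp8 and the values of replicates singled out. Genes most like Sepp1 needed a mean of 5 CPM. The 10 symbols matched RefSeq by synonym. Selv was not found under that symbol and Dio3 was too low to test. Per-kilobase levels used 1 GENCODE transcript per gene. Alternatives were DESeq2, limma-voom, RLE factors, no filter, a replicate block, the 6 libraries compared alone, a sex covariate, omission of Nppa-rich or muscle-rich libraries, and omission of each library.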

Additional observations from a re-analysis of the deposited data

How the results depend on the processing

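Of the member results recomputed under the alternatives, 1423 kept their side of the threshold, 18 lost a call, 19 gained one and 0 called values reversed. The sign changed in 87 of 1460, none of them called. In hyperoxia against room air 1449 genes passed in saline, 1838 in aurothioglucose and 3526 in the average. Without the 3 muscle-rich libraries, which leaves 1 saline hyperoxia library assumed to vary like the other groups, the saline count was 781. Leaving out each library in turn gave 740 to 1704 in saline, 1150 to 2045 in aurothioglucose and 2917 to 3683 in the average, the lowest without replicate 3 of saline room air in saline and in the average. Aurothioglucose against saline called 0 genes in room air, with 16 by DESeq2 and 0 to 1 leaving out a library. In hyperoxia it called 1, with 11 by DESeq2, 3 by limma-voom, 3 with no filter, and 0 with sex as a covariate, without the Nppa-rich or without the muscle-rich libraries (0 to 2 leaving out each). In the average it called 7, with 94 by DESeq2, 3 with RLE, 24 with no filter, 3 with the replicate block, 4 with sex, 2 without the Nppa-rich and 0 without the muscle-rich libraries (0 to 24 leaving out each). The causes were not tested, and the interaction called 0 throughout. With the replicate number as a block the hyperoxia counts were 1356, 1763 and 3440, and Sepp1 had 0.18 (adjusted p = 0.0593). With 3 libraries per group, the values do not settle whether equal numbers mark paired libraries. Of 18 same-number pairs, with r from −0.16 to 0.28, 2 were over 0.1, and 5 of 12 libraries correlated best with their own number. Depth limits Selm most, at 163 counts in its lowest library.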
